A study of Mus musculus with 12 samples.

Results

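The genes described are the 4 mouse Fc gamma receptors, Fcgr1, Fcgr2b, Fcgr3 and Fcgr4, with Fcer1g, which encodes the common gamma chain, and Fcgrt, which encodes the neonatal Fc receptor heavy chain. They were chosen by name. Deposited values were summed over the transcripts of each gene, which gave 34989 genes, of which 16027 passed the filter on low counts and were tested. All 6 receptor genes are in the files and 6 of 6 passed the filter.

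The RNA came from cells labelled as tumor associated macrophages, taken from mouse melanomas that were induced locally in animals carrying Tyr::CreER, a tamoxifen-dependent recombinase driven by a melanocyte promoter. The labels list transgenes for all 12 samples and, in another field, a wild type genotype. There were 4 groups of 3 libraries, and each library pooled at least 3 tumors. Treatment began 30 days after induction, at a tumor volume under 100 mm3, and ran for 30 days or until 2 cm3. The labels give the mice as age-matched without stating the age, and name no gate for sorting the cells. Control mice ate normal chow and had no agent beyond the PBS vehicle. CD40 agonist mice ate normal chow and were given FGK4.5, an agonistic antibody to the costimulatory receptor CD40, at 10 mg/kg every 3 days for 10 treatments. CSF1Ri mice ate chow with 600 mg/kg of PLX6134, an inhibitor of the receptor for the macrophage growth factor CSF1. Combination mice had both the antibody and the inhibitor chow. What separated the 3 libraries of a group beyond their tumors is not given, so p-values measure the spread between these pooled samples.

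Fc gamma receptors bind the constant part of IgG antibodies and let myeloid cells sense antibody-coated targets. Fcgr1, Fcgr3 and Fcgr4 encode activating receptors, which have no signalling motif of their own and signal through the ITAM, an activation motif, of the gamma chain encoded by Fcer1g. Fcgr2b encodes the inhibitory receptor, whose ITIM motif recruits phosphatases that dampen the same signal. Macrophages carry both kinds, and the balance between them is known to set their response to immune complexes. Fcgr2b is also known for clustering agonistic CD40 antibodies. The product of Fcgrt pairs with beta-2 microglobulin, encoded by B2m, and returns IgG from endosomes to the cell surface or blood.

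Because the libraries are mixtures, the marker levels that bear on the receptors come first. A library held between 26316328 and 39818657 estimated counts in all. Levels are in TPM, the normalised transcript abundance, which is scaled for transcript length and so allows genes to be compared. Fcer1g had a mean of 3502 TPM over 12 libraries and rank 30 among the tested genes. The 10 macrophage markers summed to 1405 to 2865 TPM. Single markers differed widely in level, with Itgam at a mean of 127 TPM and Mertk, a receptor of mature macrophages, at 2.67. Against Control, 10 of the 10 had a positive fold change in CD40 agonist, 3 in CSF1Ri and 6 in combination, with 0 called by edgeR. Classical monocyte markers summed to 4045 to 17580 TPM, with combination replicate 2 the highest and CSF1Ri replicate 1 next at 9544. Neutrophil markers summed to 637 to 7731 TPM. Markers of natural killer cells, which also carry Fcgr3 and Fcer1g, summed to 390 to 1506 TPM. B cell markers, of interest because B cells carry Fcgr2b, summed to 14.5 to 74.9 TPM. Eosinophil, T cell, endothelial, melanocyte and fibroblast markers each summed to at most 166 TPM. In such samples fewer cells of a type and less RNA per cell cannot be told apart. Combination replicate 2 and CSF1Ri replicate 3 stood apart from their groups on the second principal component, at -105.8 against -32.5 and -55.6, and at 32.7 against -22.2 and -24.0. CD40 agonist replicate 1 stood apart on the third component, at -116.4 against -12.8 and 3.71. Beside the results, values are given without these libraries where the direction turned or the size moved most.

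Fcgr2b and Fcgr3 lie close together on chromosome 1 and share sequence, which bears on how reads can be assigned to them. The coding sequences of Fcgr2b-202 and Fcgr3-201 share a run of 129 identical bases, shown here in capitals with 20 flanking bases on each side. In Fcgr2b-202 it covers transcript bases 402 to 530, in exons 3 to 4 of 7, at chr1:170966674-170968081 on the minus strand of GRCm38. In Fcgr3-201 it covers bases 313 to 441, in exons 3 to 4 of 5, at chr1:171054167-171057792 on the minus strand. Both spans cross an intron.
Fcgr2b-202: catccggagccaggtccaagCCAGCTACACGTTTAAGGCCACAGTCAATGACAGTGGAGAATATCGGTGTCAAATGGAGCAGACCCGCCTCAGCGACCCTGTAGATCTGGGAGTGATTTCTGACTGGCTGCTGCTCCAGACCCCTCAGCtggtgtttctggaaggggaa
Fcgr3-201: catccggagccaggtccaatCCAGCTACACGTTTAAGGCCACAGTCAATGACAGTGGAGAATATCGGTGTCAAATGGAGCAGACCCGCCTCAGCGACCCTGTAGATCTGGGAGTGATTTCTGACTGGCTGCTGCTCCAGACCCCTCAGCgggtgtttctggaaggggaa
A second shared run of 113 bases follows, at bases 532 to 644 of Fcgr2b-202. Of the 1388 windows of 75 bases in Fcgr2b-202, 94, or 6.77%, also occur in an Fcgr3 transcript, 55 from the first run and 39 from the second. Over all annotated transcripts, Fcgr1, Fcgr4, Fcer1g and Fcgrt each shared 0 such windows with any of the other 5 genes. Estimated counts divide reads from the shared runs between Fcgr2b and Fcgr3 by a model, so the values of both genes carry that uncertainty.

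Fcgr2b has long and short coding forms that differ by an exon of 141 bases encoding part of the cytoplasmic tail. The long form is known from lymphocytes and the short form from myeloid cells. The exon is shown in capitals with 20 flanking transcript bases on each side. It is exon 8 of 10 of Fcgr2b-204, at chr1:170963325-170963465 on the minus strand.
Fcgr2b-204: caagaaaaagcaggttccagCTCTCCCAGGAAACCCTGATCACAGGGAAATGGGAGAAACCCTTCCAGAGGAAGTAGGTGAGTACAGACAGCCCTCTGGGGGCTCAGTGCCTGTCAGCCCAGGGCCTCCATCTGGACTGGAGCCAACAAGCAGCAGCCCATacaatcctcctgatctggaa
The forms with this exon made up 7.43% ± 1.47 (SD, n = 12) of the TPM of the coding forms of Fcgr2b, with a range of 5.41% to 10.7%. Group means were 8.05% ± 1.02 in Control, 6.97% ± 0.593 in CD40 agonist, 7.62% ± 2.72 in CSF1Ri and 7.07% ± 1.38 in combination (SD, n = 3 each). The short form thus dominated in every library, and the group means lay within the spread of the libraries.

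The 250 bases before the first start that RefSeq lists for each gene were read for 3 motifs on both strands: GAGGAA, the core of sites for the myeloid factor PU.1, TTCNNNGAA, the GAS element of interferon-gamma signalling, and AAAGGTCA, the site of the NR4A receptors. Fcgr4 is shown because its level followed the chow, as given further on. The window is chr1:171018676-171018925, plus strand, from RefSeq on GRCm38.p6, and capitals mark TTCCTC, the PU.1 core on the other strand. RefSeq starts differ from the GENCODE gene limits given further on: the Fcgr4 window reaches just past the GENCODE start, and the windows of Fcgr3 (chr1:171059404-171059653) and Fcgr2b (chr1:170976072-170976321) lie inside the GENCODE genes. Positions are counted back from the RefSeq start.
Fcgr4: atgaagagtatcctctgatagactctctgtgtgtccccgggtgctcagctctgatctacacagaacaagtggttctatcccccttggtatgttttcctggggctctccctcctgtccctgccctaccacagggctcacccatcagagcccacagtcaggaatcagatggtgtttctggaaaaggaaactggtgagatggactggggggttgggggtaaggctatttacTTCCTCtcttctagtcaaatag
The match begins at base -22 of Fcgr4. The Fcgr3 window held GAGGAA at -6, and that of Fcgr1 held it at -55 beside TTCNNNGAA at -109, while Fcer1g, Fcgr2b and Fcgrt held none of the 3 motifs. AAAGGTCA was in 0 of the 6 windows. Among 32817 windows of the same length, 23.2% held GAGGAA, 7.01% TTCNNNGAA and 1.34% AAAGGTCA. A match only describes letters.

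Across the 12 libraries, Fcgr3 had a mean of 708 TPM, Fcgr2b of 336, Fcgrt of 111, Fcgr1 of 68.6 and Fcgr4 of 64.2, all far under Fcer1g at 3502. From the lowest to the highest library, the level spanned 1.45-fold for Fcer1g and 1.77-fold for Fcgr3. It spanned 2.90-fold for Fcgr2b, 3.50-fold for Fcgr4, 5.80-fold for Fcgrt and 5.87-fold for Fcgr1. The abundant gamma chain and Fcgr3 were therefore the steadiest of the 6, and Fcgr1 and Fcgrt the most variable.

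**Figure D1:**
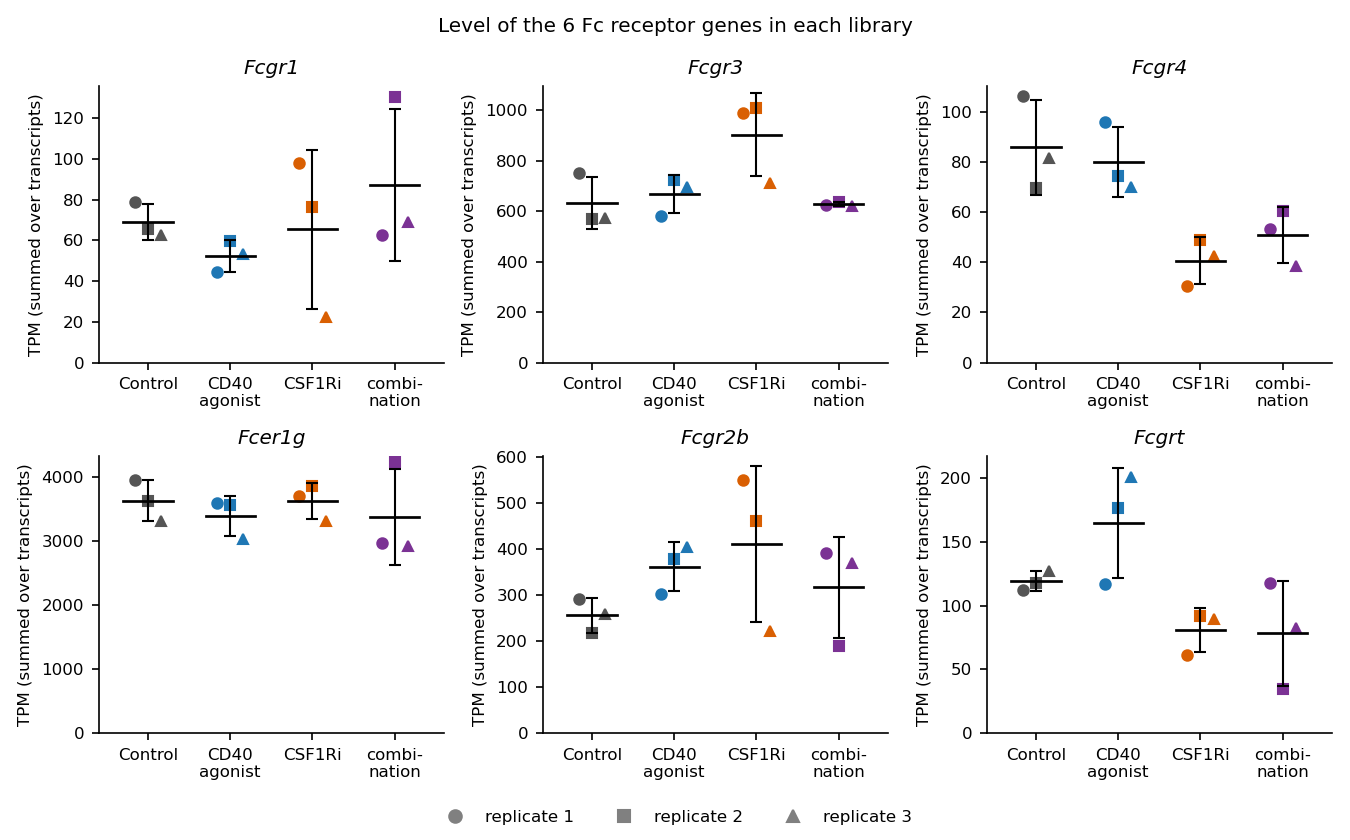
TPM of each of the 6 genes (vertical axis, one panel per gene, each starting at 0) in the 4 groups of 3 libraries. Points are libraries, with a marker shape for each replicate number, and black bars are the mean ± SD. Fcgr4 is at 30.4 to 60.5 TPM in the libraries with inhibitor chow and at 69.5 to 106.4 TPM in the others.

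Differences between groups were tested with edgeR's quasi-likelihood test on the estimated counts of all tested genes, with Benjamini-Hochberg adjustment, and a gene was called at an adjusted p under 0.05. None of the 6 genes was called: the count was 0 of 6 for CD40 agonist against Control, where 0.0% of tested genes were called, and 0 of 6 for CSF1Ri against Control, where 0.0125% were. It was 0 of 6 for combination against Control, with 0.774% of tested genes called, against CD40 agonist, with 0.0%, and against CSF1Ri, with 1.94%. It was also 0 of 6 for the interaction of the agents (0.0% of tested genes) and for any difference among the 4 groups (1.2%). At an unadjusted p under 0.05, edgeR listed 0 of 6 for CD40 agonist, 2 for CSF1Ri and 1 for combination, each against Control, where 7.68%, 9.47% and 14.8% of tested genes passed. For combination the count was 1 of 6 against CD40 agonist (9.05%) and 0 against CSF1Ri (18.3%), with 0 for the interaction (8.14%) and 2 for any difference (16.3%). By CPM, the groups did not overlap for 1 of 6 members in CD40 agonist against Control (17.1% of tested genes), 2 in CSF1Ri (15.8%) and 0 in combination (22.3%). For combination the count was 2 of 6 against CD40 agonist (13.5%) and 0 against CSF1Ri (21.9%). DESeq2 called 1 member, Fcgr4, for CSF1Ri against Control and for any difference among the groups, where it called 2.78% and 11.5% of the genes it tested. It called 0 members for CD40 agonist (1.25%) and combination (6.24%) against Control, for combination against CD40 agonist (1.73%) and against CSF1Ri (9.94%), and for the interaction (1.14%). limma on log2(TPM + 1) called 0 members throughout, with 0.137%, 0.0811% and 1.47% of genes called for CD40 agonist, CSF1Ri and combination against Control. Its share was 0.181% for combination against CD40 agonist, 3.09% against CSF1Ri, 0.0374% for the interaction and 1.92% for any difference. The comparisons against Control share its 3 libraries. Fold changes are given on the log2 scale with their standard errors. For edgeR these were taken as the size of the fold change over the square root of the F value of its test.

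**Figure D2:**
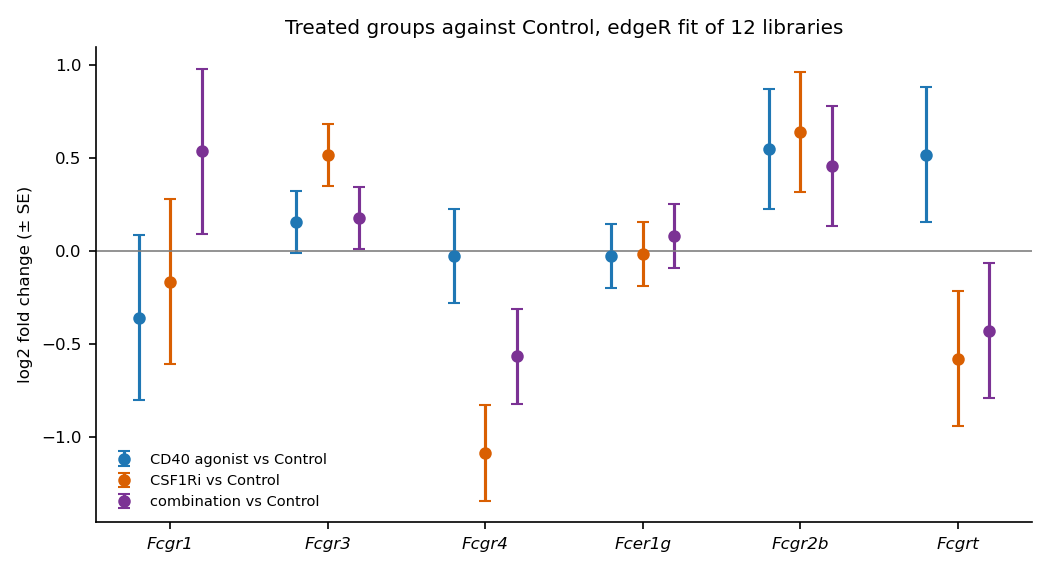
log2 fold change against Control (vertical axis) of the 6 genes (horizontal axis) for CD40 agonist, CSF1Ri and combination. Estimates are from edgeR on 3 libraries a group. Points are estimates and bars are ± 1 standard error. Fcgr4 in CSF1Ri, at -1.08, is the farthest from 0.

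Among the activating receptors, Fcgr3 (ENSMUSG00000059498, chr1:171051174-171064935), the low-affinity receptor shared by macrophages, neutrophils and natural killer cells, was the most abundant. It stood at 750.0, 571 and 572 TPM in Control replicates 1 to 3, at 582, 724 and 696 in CD40 agonist, at 988, 1011 and 713 in CSF1Ri, and at 625, 636 and 622 in combination. CSF1Ri replicates 1 and 2 were the highest libraries, CSF1Ri replicate 3 lay inside the Control range, and the combination libraries were close to each other. Group means were 631 ± 103 TPM in Control, 667 ± 74.9 in CD40 agonist, 904 ± 166 in CSF1Ri and 628 ± 7.15 in combination (SD, n = 3 each). The Fcgr3 fold change for CSF1Ri against Control was 0.52 ± 0.17, with an edgeR adjusted p of 0.335. It was 0.15 ± 0.17 for CD40 agonist (adjusted p = 0.898) and 0.18 ± 0.17 for combination (adjusted p = 0.682) in edgeR. Without CD40 agonist replicate 1 the CD40 agonist value for Fcgr3 was 0.26. The interaction for Fcgr3, the part of the combination's difference that the single agents do not add up to, was -0.49 ± 0.24 with an edgeR adjusted p of 0.639. Neutrophil markers, which also mark cells that carry Fcgr3, summed to 1544 to 7731 TPM in CSF1Ri and 1222 to 3199 TPM in Control. They summed to 637 to 952 TPM in CD40 agonist and 1553 to 4558 in combination, where mean Fcgr3 was near that of Control. One by one the neutrophil markers were mixed, with 6 positive and 4 negative fold changes in CSF1Ri against Control. In combination against Control 8 were positive and 2 negative, and 1 fell by edgeR. Natural killer cell markers summed to 567 to 863 TPM in Control and 785 to 1506 in CD40 agonist. They summed to 390 to 593 TPM in CSF1Ri and 749 to 1236 in combination. The part of neutrophils and natural killer cells in the Fcgr3 level was not tested.

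Fcgr1 (ENSMUSG00000015947, chr3:96282909-96293969), the high-affinity receptor and an interferon-responsive gene, stood at 79.0, 65.4 and 62.8 TPM in Control. It stood at 44.3, 59.9 and 53.5 TPM in CD40 agonist, at 98.0, 76.5 and 22.2 in CSF1Ri, and at 62.6, 130.5 and 68.9 in combination. The CD40 agonist libraries lay below all Control libraries in TPM but not in CPM, and both extremes came from libraries that stand apart, CSF1Ri replicate 3 and combination replicate 2. Group means were 69.1 ± 8.70, 52.6 ± 7.84, 65.6 ± 39.0 and 87.3 ± 37.5 TPM in that order (SD, n = 3 each). The Fcgr1 fold change was -0.36 ± 0.44 for CD40 agonist, -0.17 ± 0.44 for CSF1Ri and 0.54 ± 0.44 for combination, with edgeR adjusted p of 0.919, 0.974 and 0.632. The CSF1Ri value for Fcgr1 turned to 0.21 without CSF1Ri replicate 3, and the CD40 agonist value was -0.22 without CD40 agonist replicate 1. Combination stood 0.89 ± 0.45 above CD40 agonist (edgeR adjusted p = 0.593), and the normalised counts of these 2 groups did not overlap, as for 6.6% of tested genes in that direction. Without combination replicate 2 that Fcgr1 difference was 0.41, and combination against Control was 0.05. Of the Fcgr1 TPM, 48.6% came from Fcgr1-202, a short transcript annotated for nonsense-mediated decay, which held 14.4% of the counts.

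Fcgr4 (ENSMUSG00000059089, chr1:171018920-171029761), a receptor for IgG2 antibodies known from macrophages, neutrophils and patrolling monocytes, had the clearest separation by group of the 6 genes. It stood at 106.4, 69.5 and 81.3 TPM in Control and at 95.9, 74.1 and 70.0 in CD40 agonist. It stood at 30.4, 48.8 and 42.3 TPM in CSF1Ri and at 53.2, 60.5 and 38.5 in combination. The 6 libraries with inhibitor chow were all below the 6 without it in TPM, as for 0.412% of tested genes in that direction. In normalised read counts (CPM) the ranges met, with the highest chow library at 60.9 and the lowest other library at 60.7. Group means were 85.7 ± 18.8 TPM in Control, 80.0 ± 13.9 in CD40 agonist, 40.5 ± 9.35 in CSF1Ri and 50.7 ± 11.2 in combination (SD, n = 3 each).

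The Fcgr4 fold change for CSF1Ri against Control was -1.08 ± 0.26, with an unadjusted p of 0.00142 and an adjusted p of 0.178 in edgeR. DESeq2 gave -1.08 with an adjusted p of 0.00708, so the call depends on the tool. The normalised counts of those groups did not overlap for Fcgr4, nor for Fcgrt, both lower in CSF1Ri, as for 8.55% of tested genes in that direction. Fcgr4 in combination was at -0.56 ± 0.25 against Control (edgeR adjusted p = 0.332) and at -0.54 ± 0.25 against CD40 agonist (edgeR adjusted p = 0.567), where the groups did not overlap, as for 6.93% of tested genes in that direction. For CD40 agonist against Control the Fcgr4 fold change was -0.03 ± 0.25 (edgeR adjusted p = 0.991), and -0.16 without CD40 agonist replicate 1. The effect of the chow was also averaged over both antibody states, a comparison added after the values were seen. It was -0.82 for Fcgr4 on the log2 scale, -1.09 without antibody and -0.56 with it. In a two-sided exact permutation test within antibody state p was 0.005, the smallest it can give, and 0.06 after adjustment over 12 such tests of levels.

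Markers of patrolling monocytes, cells that carry Fcgr4, were at their lowest sums in the same 6 libraries. The 8 markers summed to 1429 to 1434 TPM in Control, 1053 to 1312 in CD40 agonist, 811 to 891 in CSF1Ri and 649 to 992 in combination. All 8 had a negative fold change in CSF1Ri against Control, where 0 were called by edgeR, and 4 of 8 fell in combination against Control: Ace, Cd300e, Pou2f2 and Cx3cr1. Ace, a peptidase of these monocytes, fell by 2.21 ± 0.32 on the log2 scale with an edgeR adjusted p of 0.0196. In CD40 agonist against Control 7 of the 8 had a negative fold change, where Fcgr4 was at -0.03. Neutrophil markers, 6 of 10 with a positive fold change in CSF1Ri, summed to 1544 to 7731 TPM there and 1222 to 3199 in Control. They summed to 637 to 952 TPM in CD40 agonist and 1553 to 4558 in combination. Macrophage markers summed to 1608 to 1720 TPM in Control and 1888 to 2865 in CD40 agonist. Their sums were 1417 to 1552 TPM in CSF1Ri and 1405 to 1602 in combination. The part of any of these cells in the Fcgr4 level was not tested.

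**Figure D3:**
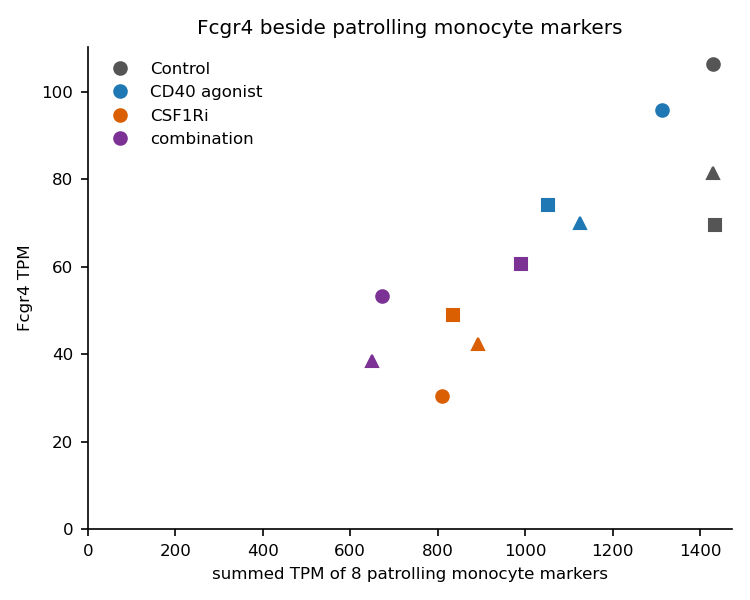
Fcgr4 TPM (vertical axis) against the summed TPM of 8 patrolling monocyte markers (horizontal axis), one point for each of 12 libraries, coloured by group. The 6 libraries with inhibitor chow, at 649 to 992 TPM of markers, sit to the lower left of the other 6, at 1053 to 1434 TPM.

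Fcer1g (ENSMUSG00000058715, chr1:171229572-171234365), the gamma chain on which the surface level of the activating receptors depends, stood at 3949, 3617 and 3315 TPM in Control. It stood at 3586, 3556 and 3021 TPM in CD40 agonist, at 3702, 3856 and 3316 in CSF1Ri, and at 2958, 4234 and 2914 in combination. Every pair of groups overlapped, and combination replicate 2 was the highest library. Group means were 3627 ± 317, 3388 ± 318, 3624 ± 278 and 3369 ± 750 TPM in that order (SD, n = 3 each). The Fcer1g fold changes against Control were -0.03 ± 0.17, -0.01 ± 0.17 and 0.08 ± 0.17 for CD40 agonist, CSF1Ri and combination, with edgeR adjusted p of 0.987, 0.999 and 0.877. The gamma chain message exceeded the summed TPM of Fcgr1, Fcgr3 and Fcgr4 by 4.66 ± 0.452-fold in Control, 4.27 ± 0.647 in CD40 agonist, 3.66 ± 0.526 in CSF1Ri and 4.37 ± 0.651 in combination (SD, n = 3 each).

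Fcgr2b (ENSMUSG00000026656, chr1:170958617-170976547), the inhibitory receptor, stood at 292, 217 and 258 TPM in Control and at 303, 378 and 405 in CD40 agonist. It stood at 551, 462 and 222 TPM in CSF1Ri and at 391, 189.6 and 369 in combination. The CD40 agonist libraries lay above all Control libraries, as did 2 of 3 libraries in each chow group. The remaining libraries, CSF1Ri replicate 3 and combination replicate 2, lay within or below the Control range and are among those that stand apart. Group means were 256 ± 37.6 TPM in Control, 362 ± 52.6 in CD40 agonist, 411 ± 170 in CSF1Ri and 317 ± 111 in combination (SD, n = 3 each).

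The Fcgr2b fold change for CD40 agonist against Control was 0.55 ± 0.32 with an edgeR adjusted p of 0.739, and the normalised counts did not overlap, as for 8.34% of tested genes in that direction. For CSF1Ri it was 0.64 ± 0.32 (edgeR adjusted p = 0.566) and for combination 0.46 ± 0.32 (edgeR adjusted p = 0.552). Without CSF1Ri replicate 3 and combination replicate 2, Fcgr2b in CSF1Ri was at 0.94 ± 0.16 against Control and passed the edgeR test, with an adjusted p of 0.0231, where 2.03% of genes were called. It also passed the edgeR test of any difference among the groups, with an adjusted p of 0.0415, where 3.88% were. Those libraries are the ones with the lowest Fcgr2b in their groups and were picked with earlier results known, and the CSF1Ri value rests on 2 libraries. In the same setting Fcgr2b in combination was at 0.70 with an edgeR adjusted p of 0.0742. B cell markers summed to 41.0 to 74.9 TPM in CD40 agonist and 31.3 to 36.4 in Control, and to 18.1 to 24.5 in CSF1Ri, and their part in the Fcgr2b level was not tested.

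Fcgrt (ENSMUSG00000003420, chr7:45092990-45103851), the IgG-recycling receptor, stood at 112, 118 and 128 TPM in Control and at 117, 177 and 202 in CD40 agonist. It stood at 61.4, 92.0 and 89.6 TPM in CSF1Ri and at 118, 34.7 and 82.4 in combination. The CSF1Ri libraries were below all Control libraries, and combination replicate 2 was the lowest of the 12. Group means were 119 ± 7.68, 165 ± 43.5, 81.0 ± 17.0 and 78.2 ± 41.6 TPM in that order (SD, n = 3 each). The Fcgrt fold changes against Control were 0.52 ± 0.36 for CD40 agonist, -0.58 ± 0.36 for CSF1Ri and -0.43 ± 0.36 for combination, with edgeR adjusted p of 0.805, 0.681 and 0.640. The Fcgrt value was -0.08 in combination without combination replicate 2, and 0.73 in CD40 agonist without CD40 agonist replicate 1. Combination against CD40 agonist was at -0.95 ± 0.37 (edgeR adjusted p = 0.461), and at -0.59 without combination replicate 2. Averaged over both antibody states, the chow effect on Fcgrt was -0.84 on the log2 scale, with a two-sided exact permutation p of 0.01 and 0.06 after adjustment over the 12 level tests. Without combination replicate 2 it was -0.59. Macrophage markers summed to 1608 to 1720 TPM in Control, 1888 to 2865 in CD40 agonist, 1417 to 1552 in CSF1Ri and 1405 to 1602 in combination. Dendritic cell markers summed to 520 to 696 TPM in Control, 476 to 651 in CD40 agonist and 311 to 711 in CSF1Ri. In combination replicates 1 to 3 the dendritic cell markers were at 682, 53.0 and 770 TPM. The part of both cell types in the Fcgrt level was not tested. B2m, the partner chain, was far more abundant, with group means of 7360 TPM in Control, 7230 in CD40 agonist, 7183 in CSF1Ri and 9174 in combination. It rose by 0.54 ± 0.11 on the log2 scale in combination against CSF1Ri (edgeR adjusted p = 0.038), a call lost in 12 of 21 alternatives. Those include leaving out any 1 library other than CD40 agonist replicates 1 and 2 and combination replicate 3, with adjusted p for B2m of 0.0530 to 0.129 in edgeR.

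The makeup of the activating receptors was set beside these levels. Fcgr3 made up 76.9% to 91.7% of the summed TPM of Fcgr1, Fcgr3 and Fcgr4 in the 12 libraries. Fcgr4 made up 10.9% ± 0.881 in Control, 10.2% ± 2.70 in CD40 agonist, 4.15% ± 1.36 in CSF1Ri and 6.59% ± 1.14 in combination (SD, n = 3 each). The Fcgr1 share had means of 8.83%, 6.55%, 6.12% and 11.2% in that order. The ratio of Fcgr4 to Fcgr3 was 0.142, 0.122 and 0.142 in Control and 0.165, 0.102 and 0.101 in CD40 agonist. It was 0.0308, 0.0483 and 0.0593 in CSF1Ri and 0.0852, 0.0951 and 0.0618 in combination. All 6 chow libraries were below the other 6, and the combination libraries were above the CSF1Ri libraries. The chow effect on this ratio, added after the values were seen, was -1.09 on the log2 scale, with a two-sided exact permutation p of 0.005, the smallest possible, and 0.06 after adjustment over 12 tests of ratios. The 24 tests of ratios and levels gave 0 adjusted p below 0.05.

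**Figure D4:**
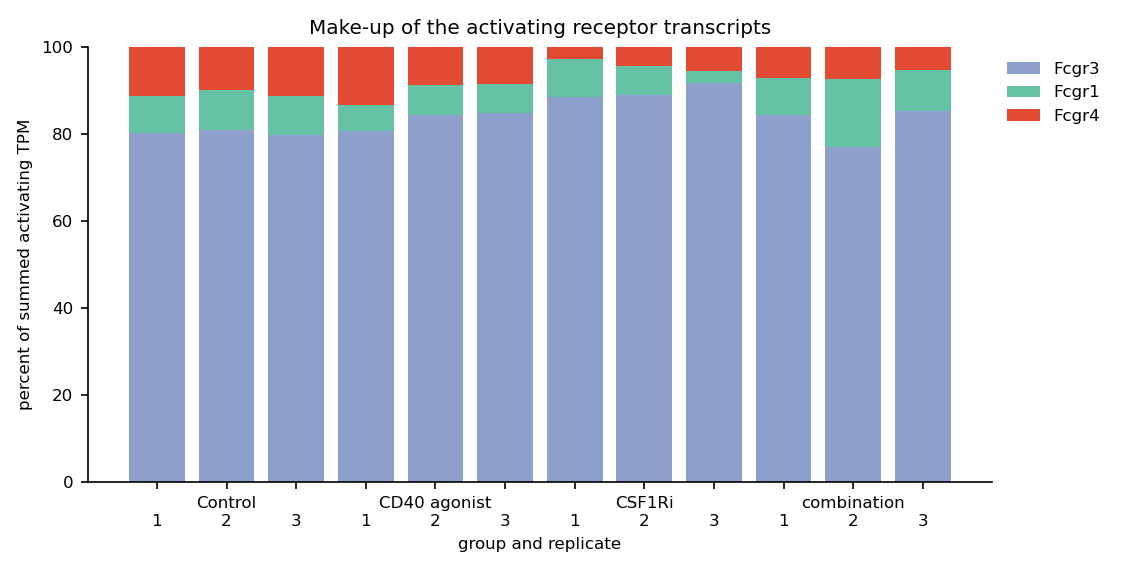
Share of the summed TPM of Fcgr1, Fcgr3 and Fcgr4 held by each gene (vertical axis, percent), one stacked bar for each of 12 libraries, ordered by group. Fcgr3 fills 76.9% to 91.7% of every bar, and the Fcgr4 segment is thinnest in CSF1Ri, at a mean of 4.15%.

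The balance of activating to inhibitory receptors was taken as the summed TPM of Fcgr1, Fcgr3 and Fcgr4 over the TPM of Fcgr2b. It was 3.20, 3.25 and 2.77 in Control, 2.38, 2.27 and 2.03 in CD40 agonist, 2.03, 2.46 and 3.51 in CSF1Ri, and 1.89, 4.36 and 1.98 in combination. The CD40 agonist libraries were all below the Control libraries. The 2 highest ratios belonged to CSF1Ri replicate 3 and combination replicate 2, and the other 7 treated libraries lay below all Control libraries. Group means were 3.07 ± 0.264, 2.23 ± 0.182, 2.66 ± 0.760 and 2.74 ± 1.40 in that order (SD, n = 3 each).

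The activating to inhibitory ratio in CD40 agonist was 0.724 times that in Control, or -0.47 on the log2 scale, with a two-sided exact permutation p of 0.1, the smallest that 3 against 3 can give. Averaged over both chows, the antibody effect on the ratio was -0.25 with an exact permutation p of 0.3. Averaged over both antibody states, the chow effect was -0.02 with an exact permutation p of 0.94. Combination against Control was at -0.27 with an exact permutation p of 0.4. Without combination replicate 2 the antibody effect was -0.44 and combination against Control was at -0.66. Without both CSF1Ri replicate 3 and combination replicate 2 the antibody effect was -0.34 and the chow effect -0.33. Those libraries hold the highest ratios, so leaving them out selects on the ratio itself, and these values are given as a description with no test.

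Taken receptor by receptor, the ratio of Fcgr1 to Fcgr2b was 0.270, 0.301 and 0.243 in Control, 0.146, 0.158 and 0.132 in CD40 agonist, 0.178, 0.166 and 0.1002 in CSF1Ri, and 0.160, 0.688 and 0.187 in combination. Every CD40 agonist and CSF1Ri library was below every Control library, with log2 differences of -0.90 and -0.92 and an exact permutation p of 0.1 each, and combination replicate 2 was above them all. The ratio of Fcgr3 to Fcgr2b was 2.47 ± 0.225 in Control and 1.85 ± 0.114 in CD40 agonist (SD, n = 3 each), also without overlap. The ratio of Fcgr4 to Fcgr2b was 0.333 ± 0.027 in Control and 0.117 ± 0.068 in CSF1Ri (SD, n = 3 each), again without overlap, and its chow effect was -1.05 with an exact permutation p of 0.035 and 0.21 after adjustment.

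**Figure D5:**
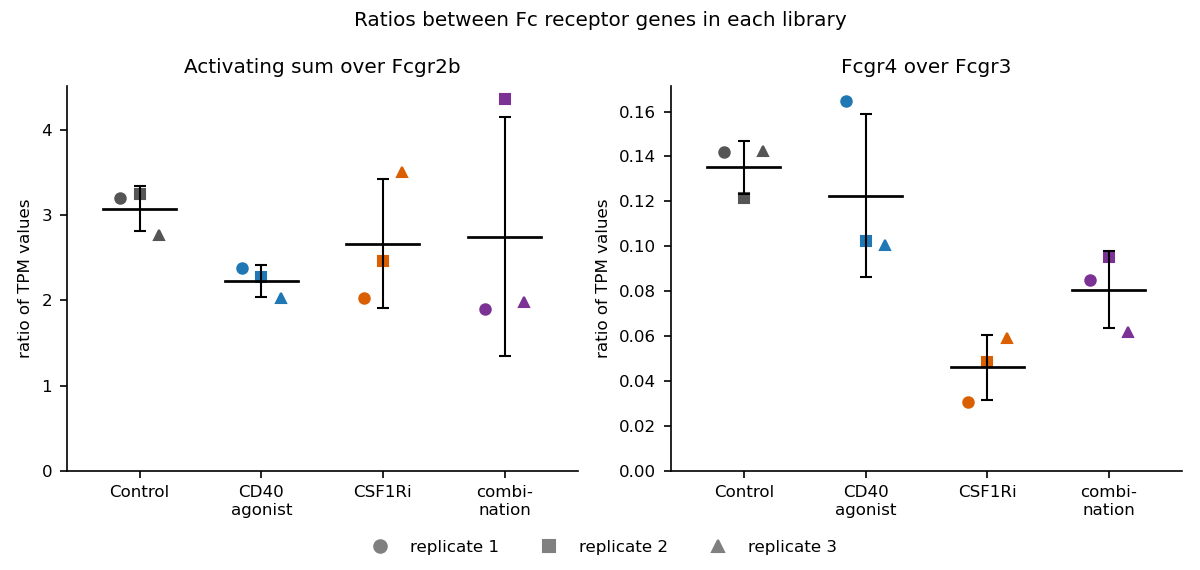
Ratios between Fc receptor genes (vertical axis, ratio of TPM) in the 4 groups of 3 libraries. The left panel is the sum of Fcgr1, Fcgr3 and Fcgr4 over Fcgr2b, and the right panel is Fcgr4 over Fcgr3. Points are libraries, with a marker shape for each replicate number, and black bars are the mean ± SD. On the left, the CD40 agonist libraries, at 2.03 to 2.38, lie below the Control libraries, at 2.77 to 3.25. Combination replicate 2, at 4.36, is the highest there.

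Genes around the receptors were described from lists by role, with 72 tested genes in all. In edgeR 0 of the 72 were called for CD40 agonist or CSF1Ri against Control, where 0.0% and 0.0125% of tested genes were called. In combination 1 rose against Control, where 0.774% of tested genes were called, and 2 rose against CSF1Ri, where 1.94% were. Counts this small do not set the lists apart from all tested genes. Of the 18 genes of ITAM signalling downstream of Fcer1g, 0 were called in any comparison. The most abundant were the GTPase Rac2, at a mean of 334.5 TPM, and the Src-family kinases Lyn, at 315.7, and Fgr, at 255.5. Their median fold change was -0.08 in CD40 agonist, 0.17 in CSF1Ri and 0.22 in combination against Control, beside medians over all genes of 0.01, -0.01 and 0.00. The ITAM list summed to 2051 to 2197 TPM in Control, 1731 to 1865 in CD40 agonist, 2228 to 2455 in CSF1Ri and 1434 to 2494 in combination. Of the 10 genes of inhibitory signalling on the side of Fcgr2b, 0 were called, with the phosphatase Ptpn6 at a mean of 361 TPM and the inhibitory receptors Sirpa and Pirb at 198 and 193. The inhibitory list summed to 1075 to 1118 TPM in Control, 962 to 1020 in CD40 agonist, 1249 to 1471 in CSF1Ri and 799 to 1456 in combination. For both sums the single-agent groups lay on opposite sides of Control and the combination libraries spanned it. Gene by gene the inhibitory list was mixed, with 5 positive and 5 negative fold changes in CSF1Ri. Its median fold change against Control was -0.10 in CD40 agonist, 0.05 in CSF1Ri and 0.08 in combination.

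Among other Fc receptors, 10 of 12 genes were tested and 1, Fcer1a, the IgE-binding chain that pairs with Fcer1g on basophils and mast cells, rose. It stood at 33.1, 58.1 and 40.3 TPM in Control, 116, 87.5 and 57.9 in CD40 agonist, 83.9, 121 and 76.3 in CSF1Ri, and 164, 90.4 and 172 in combination. All combination libraries exceeded all Control libraries. Fcer1a was at 1.86 ± 0.34 in combination against Control (edgeR adjusted p = 0.0367), a call lost in 10 of 21 alternatives. Those include leaving out any 1 Control library, combination replicate 1 or 3, CD40 agonist replicate 2 or CSF1Ri replicate 1 or 2, with adjusted p for Fcer1a of 0.0526 to 0.164 in edgeR. Basophil and mast cell markers, of which Fcer1a is 1, summed to 147 to 216 TPM in Control and 416 to 738 in combination, and their part in the Fcer1a level was not tested.

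Among receptors that pair with Fcer1g, 7 of 8 genes were tested and 1, Clec4n, which encodes the fungal receptor Dectin-2, rose in combination against CSF1Ri. Clec4n stood at 97.2, 88.2 and 146 TPM in Control, 123, 164 and 146 in CD40 agonist, 100.4, 81.1 and 61.3 in CSF1Ri, and 197, 210.1 and 200.3 in combination. The combination libraries were the 3 highest of the 12. Its fold change was 1.51 ± 0.23 (edgeR adjusted p = 0.0158), a call lost in 2 of 21 alternatives, 1 of them without CSF1Ri replicate 2 (edgeR adjusted p = 0.0632). Among adaptor relatives of Fcer1g, 0 of 3 were called, and Tyrobp, which encodes DAP12, had a mean of 4918 TPM. Among 12 genes of phagocytic uptake 0 were called between any 2 groups, and Cd36, a scavenger receptor, passed only the test of any difference among the groups (edgeR adjusted p = 0.0462).

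Immunoglobulin chains, whose IgG forms are the ligands of these receptors, were also present as RNA. The list was mostly the light chain Igkc, at a mean of 677 TPM, the IgA chain Igha, at 203, and the IgM chain Ighm, at 174, so its sum is not a level of IgG. Of 12 chains 11 were tested and 0 called, and they summed to 929 to 2023 TPM in Control, 1686 to 3469 in CD40 agonist, 240 to 693 in CSF1Ri and 74.4 to 556 in combination. Their median fold change against Control was 0.82 in CD40 agonist, -1.64 in CSF1Ri and -1.88 in combination. The IgG1 chain gene Ighg1 was at 0 TPM in every Control library and at 298, 94.9 and 1.31 TPM in CD40 agonist replicates 1 to 3. CD40 agonist replicate 1 held most of it. Other IgG chains were found in Control, where Ighg2b stood at 0, 5.10 and 41.9 TPM and Ighg2c at 0, 0.216 and 107. In CD40 agonist Ighg2b stood at 0.806, 3.82 and 6.07 TPM and Ighg2c at 122, 5.93 and 1.11. Ighg3 had a mean of 1.63 TPM in Control and 1.16 in CD40 agonist.

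By the correlation of log2 levels over the 12 libraries, the genes most like Fcgr1 were Oas1a, an interferon-induced gene (Pearson r = 0.93), Stfa1 (0.91) and Dld (0.90). Those most like Fcgr3 were Ets2 (0.95), Cd33 (0.94) and Lpgat1 (0.92), and those most like Fcgr4 were Nr4a1, a nuclear receptor and 1 of the 8 patrolling monocyte markers (0.87), Gngt2 (0.86) and Zfp213 (0.86). For Fcer1g they were Fpr1, a receptor for formyl peptides (0.91), Nwd1 (0.88) and Trem3 (0.87), and for Fcgr2b they were Rhbdl1 (0.94), Emp1 (0.92) and Gm45574 (0.92). For Fcgrt they were Sult1a1 (0.94), Itgax, the integrin CD11c (0.94), and Ltc4s (0.93). Nwd1, Rhbdl1 and Zfp213 had low means of 0.117, 0.479 and 0.977 TPM. In deviations from group means, r with Fcgr4 was 0.58 for Nr4a1, 0.81 for Gngt2 and 0.85 for Zfp213. Each gene named is among the 3 highest of all tested genes for its member. The points share libraries and depth, and these values describe likeness over 12 libraries.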

How the data were processed

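RNA was measured by sequencing of 12 libraries made from 50 ng of RNA with an ultra-low-input, non-stranded kit and read as 75-bp pairs, per the labels' protocols. The deposited files give the authors' estimated counts and TPM per transcript, per the file headers. The submitters' processing notes name STAR, HTSeq, DESeq2 and mm10, but the files do not have the layout of HTSeq output, and no label or header names the quantifier. Of 111462 transcripts 110203 matched GENCODE M21 and were summed per gene; the unmatched ones held 0.378% to 0.436% of the counts. Counts per library were 28709482 to 31698533 in Control, 26316328 to 33948213 in CD40 agonist, 26665394 to 32880763 in CSF1Ri and 34168389 to 39818657 in combination.

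The summed estimated counts were rounded and fitted with edgeR 4.0.16 (TMM scaling, filterByExpr, robust quasi-likelihood, all 12 libraries in one fit, 8 residual degrees of freedom) in R 4.3.3, and p-values were adjusted over 16027 genes. The common biological coefficient of variation was 61%. Ratios were taken from TPM and tested, two-sided, by exact permutation of libraries within the other agent's groups, which can give p of 0.005 at the lowest. The fits were tested on simulated data. The 6 members were all named. Of the other lists, genes that passed the test and the most abundant were named, with Itgam, Mertk and the IgG chains beside them. For each member the 3 genes with the highest correlation were named. Groups came from the sample titles. The alternatives were DESeq2 1.42.0, limma 3.58.1 on log2(TPM + 1), other scalings and filters, protein-coding transcripts only, libraries left out and a replicate block.

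Members, lists and the libraries left out together were chosen with earlier results of these data known. The full genotype is not reported here. Motifs and gene positions refer to GRCm38.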

Additional observations from a re-analysis of the deposited data

How the results depend on the processing

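DESeq2 called 1 member, Fcgr4, in place of 0 for CSF1Ri against Control and for any difference among the groups. It called 408 and 1692 genes there in all. Leaving out combination replicate 2 and CSF1Ri replicate 3 together also gave 1 in each, Fcgr2b, where edgeR called 338 and 646 genes. Those libraries hold the lowest Fcgr2b of their groups and were picked with earlier results known, so that call selects on Fcgr2b itself. Leaving out single libraries gave 0 throughout. Fcgr4 in CSF1Ri against Control ran from -1.26 to -0.91 over 21 alternatives, with adjusted p of 0.00708 to 0.480. The activating to inhibitory ratio moved more. Its antibody effect was 0.017 with Fcgr3 left out and -0.34 without the 2 libraries, with leave-one-out values of -0.44 to -0.14. Its chow effect was 0.0014 from estimated counts and -0.33 without the 2 libraries, with leave-one-out values of -0.22 to 0.082. The cause was not tested.

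Of 36 member fold changes, 14 changed sign in 37 of 750 alternatives, none with a size above 0.70. With limma, combination was at -0.13 for Fcer1g against Control, at -0.0817 for Fcgr3 and -0.0259 for Fcer1g against CD40 agonist, at -0.12 for Fcer1g and -0.19 for Fcgrt against CSF1Ri, and the Fcer1g interaction was -0.0256. With protein-coding transcripts Fcgr3 in combination against CD40 agonist was at -0.022. Without the 2 libraries, CSF1Ri against Control was at 0.23 for Fcgr1 and 0.053 for Fcer1g, and combination against Control at -0.15 for Fcer1g. Combination against CD40 agonist was then at -0.020 for Fcgr3, -0.13 for Fcer1g and 0.16 for Fcgr2b, combination against CSF1Ri at -0.18 for Fcgr1 and -0.21 for Fcer1g, and the interaction at -0.18 for Fcer1g and 0.064 for Fcgrt. Leave-one-out ranges with a change of sign were, for CD40 agonist against Control, -0.16 to 0.16 for Fcgr4 and -0.10 to 0.065 for Fcer1g, and for CSF1Ri against Control, -0.53 to 0.21 for Fcgr1 and -0.11 to 0.038 for Fcer1g. For combination they were -0.15 to 0.21 for Fcer1g against Control, and against CD40 agonist -0.092 to 0.12 for Fcgr3, -0.13 to 0.24 for Fcer1g and -0.30 to 0.16 for Fcgr2b. Against CSF1Ri they were -0.14 to 0.23 for Fcer1g, -0.47 to 0.079 for Fcgr2b and -0.32 to 0.50 for Fcgrt, and for the interaction -0.11 to 0.26 for Fcer1g.

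Genes called over all tested genes ran, over the alternatives other than single libraries left out, from 0 to 194 for CD40 agonist against Control (0 in the reported fit), 0 to 408 for CSF1Ri (2), 5 to 933 for combination (124), 0 to 275 for combination against CD40 agonist (0), 0 to 1486 for combination against CSF1Ri (311), 0 to 178 for the interaction (0) and 49 to 1692 for any difference (193). With single libraries left out they ran from 0 to 7, 0 to 124, 0 to 154, 0 to 6, 22 to 429, 0 to 15 and 13 to 291 in that order.

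Replicate numbers showed no sign of pairing the libraries. For each library the deviations of gene levels from its group mean were taken and compared between same-numbered libraries of different groups. Of 18 correlations of these deviations 0 exceeded 0.1, with a range of -0.06 to 0.06. No comparison with differently numbered libraries is given. With the replicate number as a block, 0 members were called in every comparison, genes called were 59 for combination against Control, 121 against CSF1Ri and 49 for any difference, and the ratio effects kept p of 0.2812 for antibody, 0.875 for chow and 0.5 for combination against Control in exact permutation tests. The chow effects had p of 0.0312 for Fcgr4, the smallest such a test can give, and 0.0625 for Fcgrt in the same sign-flip tests.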
